A study of Homo sapiens with 39 samples.

Results

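The SLC25 genes encode the carriers of the inner mitochondrial membrane. Their messenger RNA was followed in HCT116 cells, a human colorectal cancer line, in which single isoforms of hepatocyte nuclear factor 4 alpha (HNF4A) were switched on. Members were taken by gene name: SLC25A followed by digits only, plus UCP2, whose systematic name in the same family is not used in the tables. This rule uses no measured value, and it found 49 genes in 50 of the 45435 rows, the 12 isoform rows of HNF4A having been summed into 1. SLC25A6 was listed in 2 rows with the same values in all 39 libraries and was counted once. The rule leaves out UCP1, UCP3, MTCH1 and MTCH2, which belong to the same family under other names and are described with the related transporters.

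Each SLC25 carrier is a small protein of repeated helix pairs that alternates between a state open to the cytosol and a state open to the matrix. Most of them exchange a metabolite on one side for another on the opposite side, and so set which nucleotides, acids, amino acids and cofactors reach the matrix enzymes. In gut epithelium and liver, carriers supply ATP export, phosphate import, citrate export for lipid synthesis and acylcarnitine import for fatty acid oxidation. HNF4A is a nuclear receptor of the liver and gut that activates many genes of lipid and intermediary metabolism.

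The parental group was the HCT116 Flp-In T-REx host line, which holds no HNF4A construct. The remaining 12 groups were stable lines, 1 per HNF4A isoform (numbered 1 to 12), with GFP joined to its C-terminus under a doxycycline-inducible promoter. All 13 groups, parental cells included, received 2.5 µg/ml doxycycline for 48 h, and each had 3 RNA-seq libraries. Before induction all cells were kept in 5 µg/ml blasticidin, with 100 µg/ml zeocin for the parental cells and 100 µg/ml hygromycin B for the lines, and these antibiotics were removed at induction. No line made GFP alone, and each isoform was 1 line, so the isoform, the GFP tag, the earlier antibiotic and the derivation of a line cannot be told apart. Nothing in the labels says that the 3 libraries of a group came from separate cultures, so p-values measure the spread between these libraries, which may be technical.

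HNF4A, summed over its isoform rows, checks the labels only as far as telling the lines from the parental cells. The sum cannot tell which isoform a line made. Parental cells had 31.5 TPM ± 0.589 (SD, n = 3), and the 12 line means lay between 613.5 TPM (isoform 2) and 1071.0 TPM (isoform 6). TPM is a transcript abundance per length, scaled so that each library sums to the same total, and read depth is unknown from it. Replicate 1 of isoform 3 stood apart: its HNF4A level was 406.9 TPM, while replicates 2 and 3 had 833.5 and 771.8 TPM. Differences in isoform 3 are therefore also given without it for SLC25A20, SLC25A1, SLC25A24 and SLC25A46. Other isoform 3 differences, also those between pairs of lines, include all 3 libraries. The epithelial markers EPCAM, KRT8, KRT18, KRT19 and CDH1 were expressed in every group. Of 10 markers of other cell types, the T cell marker CD3E and the fibroblast marker DCN were at 0 TPM in all parental libraries, and PTPRC, COL1A2, VWF, ALB and TTN had group means of at most 0.562 TPM. The other 3 markers were CD68, PECAM1 and COL1A1. COL1A1 had the highest parental mean of the markers. Its line means were all below the parental one, from 8.91 TPM (isoform 9) to 12.7 TPM (isoform 1).

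The carriers covered a wide range of levels. SLC25A3, the phosphate carrier, had the highest mean over the 39 libraries with 886.5 TPM, followed by the ADP/ATP carrier SLC25A5 with 826.6 TPM and the citrate carrier SLC25A1 with 280.0 TPM. The next were SLC25A39 with 259.2 TPM and the ADP/ATP carrier SLC25A6 with 177.0 TPM. In the parental cells SLC25A3, SLC25A5 and SLC25A1 made up 52.8% of the summed carrier TPM, and in isoform 1 they made up 64.2%. For the parental cells the sum was 3107.4 TPM ± 84.0 (SD, n = 3), for isoform 1 it was 4086.7 TPM ± 40.3, and the ranges of the libraries did not overlap.

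Of the 49 members, 41 reached a mean of 1 TPM and were tested, and 8 were under it. The ornithine carrier SLC25A2 had a mean of 0.0177 TPM and was at 0 in 24 of 39 libraries. The germ cell ADP/ATP carrier SLC25A31 was at 0.0334 TPM and at 0 in 14 libraries. SLC25A47, a carrier known from liver, was at 0.0973 TPM, and its highest group mean was 0.306 TPM in isoform 10. The NAD carrier paralogue SLC25A52 was at 0.111 TPM, SLC25A48 at 0.172 TPM, SLC25A34 at 0.369 TPM, SLC25A53 at 0.493 TPM and the glutamate carrier SLC25A18 at 0.691 TPM. SLC25A34 had its highest group mean in isoform 1, at 0.761 TPM. Several members have close copies among which short reads can be divided, such as SLC25A4, SLC25A5 and SLC25A6, or SLC25A51 and SLC25A52. The 8 pseudogenes named after SLC25A5 had a summed mean of 0.459 TPM, against 826.6 TPM for SLC25A5 itself.

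**Figure D1:**
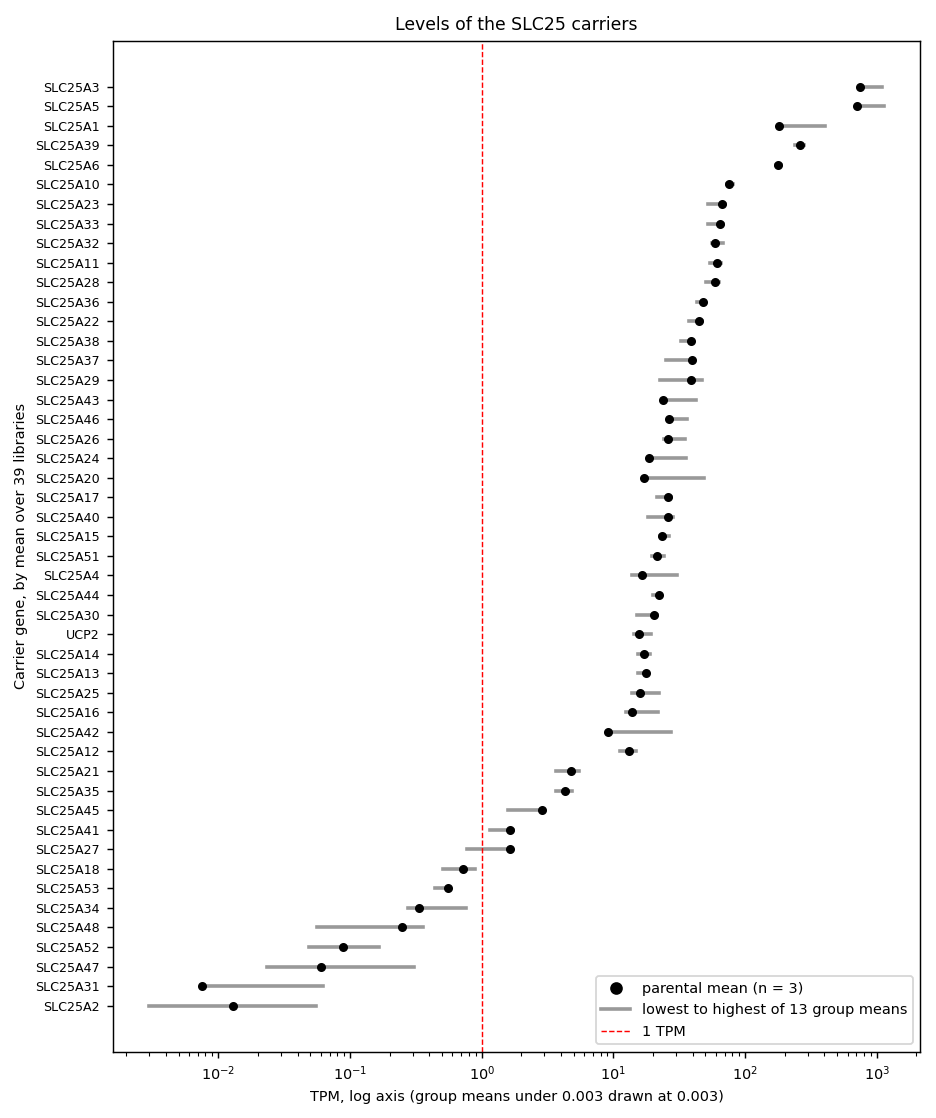
Levels of the carriers in TPM on a log axis, ordered by the mean over 39 libraries. Points are parental means (n = 3), grey bars run from the lowest to the highest of the 13 group means, and the dashed line marks 1 TPM. Among members with a mean of at least 1 TPM, the bars of SLC25A20, SLC25A42 and SLC25A1 reach furthest to the right of the parental point. Bars of some members under 1 TPM, such as SLC25A31 and SLC25A47, reach further.

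Sequence upstream of the start was read for the members with an entry in the RefSeq promoter table (GRCh38.p14), which were 41 of 49, with 53 entries in all. The 4 promoters below are shown because 3 belong to the members with a difference of at least 1 on the log2 scale in some line (SLC25A20, SLC25A42 and SLC25A1), and SLC25A29 is the tested member with the lowest log2 difference in any line. Each is the 250 bases before the RefSeq start, 5′ to 3′, with capitals for the letters GGGCGG, known as the GC box, or CCAAT, the box of that name, on either strand. The GENCODE start used for the gene positions lies further upstream in 3 of them, so 111 bases of the SLC25A20 window, 94 of the SLC25A1 window and 103 of the SLC25A29 window fall inside the gene as GENCODE draws it.
SLC25A20, chr3:48898883-48899132, minus strand: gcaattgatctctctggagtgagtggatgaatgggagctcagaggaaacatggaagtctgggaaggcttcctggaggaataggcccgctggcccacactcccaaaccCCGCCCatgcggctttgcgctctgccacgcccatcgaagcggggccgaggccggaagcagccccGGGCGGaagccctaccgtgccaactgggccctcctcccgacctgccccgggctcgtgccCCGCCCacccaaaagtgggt
SLC25A42, chr19:19063744-19063993, plus strand: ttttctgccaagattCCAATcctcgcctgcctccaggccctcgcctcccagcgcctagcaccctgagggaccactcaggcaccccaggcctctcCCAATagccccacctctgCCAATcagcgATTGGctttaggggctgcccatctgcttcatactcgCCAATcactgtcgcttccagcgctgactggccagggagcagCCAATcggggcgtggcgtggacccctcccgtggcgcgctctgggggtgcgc
SLC25A1, chr22:19178737-19178986, minus strand: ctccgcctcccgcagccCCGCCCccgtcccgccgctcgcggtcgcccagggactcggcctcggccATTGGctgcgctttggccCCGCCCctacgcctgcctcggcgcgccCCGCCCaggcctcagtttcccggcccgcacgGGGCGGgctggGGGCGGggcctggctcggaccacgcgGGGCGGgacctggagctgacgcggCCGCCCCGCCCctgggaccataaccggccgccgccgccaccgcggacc
SLC25A29, chr14:100306445-100306694, minus strand: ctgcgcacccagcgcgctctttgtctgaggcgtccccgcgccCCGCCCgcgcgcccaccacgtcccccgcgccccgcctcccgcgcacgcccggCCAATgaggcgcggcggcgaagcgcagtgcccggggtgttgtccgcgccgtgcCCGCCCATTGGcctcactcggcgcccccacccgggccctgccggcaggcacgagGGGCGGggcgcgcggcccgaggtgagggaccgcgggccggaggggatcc

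The SLC25A20 window held 3 GC boxes and no CCAAT box, and the SLC25A42 window held 6 CCAAT boxes and no GC box. The SLC25A1 window held 8 GC boxes and 1 CCAAT box, and that of SLC25A29 3 GC boxes and 2 CCAAT boxes. Neighbouring matches can share letters. Over all members, 36 of 53 windows held a GC box, against 42.6% of the 35116 windows in the table, and 23 of 53 held a CCAAT box, against 32.0%. The letters CAAAGTCCA or CAAAGGTCA, forms of the HNF4 element, on either strand were in 0 of 53 member windows and in 0.664% of all windows. AGGTCA, a nuclear receptor half-site that is also part of the second of these forms, was in 4 of 53 member windows, those of SLC25A22, SLC25A34, SLC25A36 and SLC25A45, against 12.1% of all windows. These counts describe letters in these windows and nothing about binding.

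Each line was compared with the parental cells to ask which carriers differ when 1 isoform is produced. Differences are line minus parental on the log2(TPM + 1) scale, tested with limma over 15003 genes. A carrier is said to have risen or fallen where its Benjamini-Hochberg adjusted p was under 0.05. Carriers with a difference of at least 1 as well were few: in isoform 1, 3 of 41 rose by that much (SLC25A20, SLC25A42 and SLC25A1), where 2.74% of all tested genes did. In isoform 2, 2 of 41 did (SLC25A20 and SLC25A42), against 2.36%. No carrier fell by that much in isoforms 1 or 2, where 1.78% and 1.37% of all genes did. In isoforms 3 to 12, 0 carriers passed both thresholds. The shares of all genes higher and lower by that much were 0.653% and 0.153% (isoform 3), 0.227% and 0.313% (isoform 4), 0.153% and 0.14% (isoform 5), 0.0933% and 0.153% (isoform 6), 1.12% and 0.96% (isoform 7) and 0.94% and 0.473% (isoform 8). They were 0.387% and 0.44% for isoform 9, 1.13% and 0.313% for isoform 10, 1.05% and 0.653% for isoform 11 and 0.44% and 0.133% for isoform 12.

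At the adjusted p alone the carriers split between higher and lower. The direction of small differences moved with scaling. Dividing the TPM by median-of-ratios factors moved the median difference of all genes from -0.107 to 0.016 in isoform 1 and from -0.09 to 0.018 in isoform 2, so the counts are given both ways, each against the shares of all genes tested that way (14992 after scaling).
In isoform 1, 12 of 41 carriers rose and 15 fell, against 19.8% and 38.7% of all genes, and 15 rose and 7 fell after scaling, against 32% and 25.8%. For isoform 2, 12 rose and 11 fell, against 19.7% and 35.6%, and 18 and 5 after scaling, against 31.1% and 23.8%. The counts of isoform 3 were 8 and 3, against 11.2% and 14.7%, and 11 and 2 after scaling, against 19.3% and 9.29%. The share of carriers that rose was above that of all genes in these 3 lines both ways, and the share that fell was near or below it.
In isoform 4, 4 rose and 4 fell, against 6.26% and 10.1%, and 11 and 2 after scaling, against 14.6% and 5.99%. Isoform 5 had 2 higher and 5 lower, against 9.57% and 5.22%, and the same counts after scaling, against 9.62% and 6.44%. Isoform 6 had 3 and 3, against 5.94% and 4.13%, and 3 and 2 after scaling, against 8.78% and 3.7%. Without scaling these 3 lines had the fewest carriers past the threshold, and after it isoforms 5 and 6 did.
In isoform 7, 9 rose and 8 fell, against 13.4% and 26.2%, and 15 and 4 after scaling, against 24.6% and 17%. Isoform 8 had 10 higher and 5 lower, against 16.9% and 17.5%, and 13 and 4 after scaling, against 22.9% and 14.4%. Isoform 9 had 7 and 3, against 10.9% and 11.8%, and 10 and 2 after scaling, against 16.9% and 10%. Without scaling the members' median difference in these lines was between -0.01 and 0.07.
For isoform 10 the counts were 9 and 4, against 17% and 20.4%, and 13 and 3 after scaling, against 23.6% and 16.4%. Isoform 11 had 8 higher and 5 lower, against 14.5% and 24%, and 13 and 3 after scaling, against 25.6% and 16.2%. Isoform 12 had 8 and 4, against 7.92% and 6.65%, and 8 and 3 after scaling, against 12.5% and 5.6%. In isoform 12 the share of members that rose, 19.5%, was above the 7.92% of all genes, or 12.5% after scaling.

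Across the 492 pairs of carrier and line, 92 rose and 70 fell without scaling. By line, 5.94% (isoform 6) to 19.8% (isoform 1) of all genes rose, and 4.13% (isoform 6) to 38.7% (isoform 1) fell. The 12 comparisons share the same 3 parental libraries, so their counts are not independent. The counts by member that follow have no counterpart over all genes here, so they are not shown to be particular to carriers. By member, 12 carriers rose in some lines and fell in none, 18 fell in some and rose in none, 3 did both and 8 passed in no line. The 8 were SLC25A6, SLC25A10, SLC25A14, SLC25A15, SLC25A35, SLC25A36, SLC25A51 and UCP2. After scaling, 6 of them rose in some lines, namely SLC25A51 in 7, SLC25A10 and SLC25A15 in 4 each, and SLC25A6, SLC25A14 and UCP2 in 2 each. Carriers that rose in at least 8 lines were SLC25A1 (11 lines), SLC25A43 and SLC25A5 (10 each), SLC25A3, SLC25A24 and SLC25A4 (9 each), and SLC25A20 and SLC25A42 (8 each). Those that fell in at least 8 lines were SLC25A37 (11 lines) and SLC25A29 (9 lines), both in 9 after scaling.
In the authors' deposited tables, 132 of the 162 pairs that passed here also passed an adjusted p of 0.05 with the sign found here, and 0 with the other sign. All 92 pairs that rose here were among them, and 40 of the 70 that fell. For the members tested here, the authors' deposited tables had 129 pairs higher and 43 lower. Some members under a mean of 1 TPM, not tested here, also passed there. SLC25A34 was higher in isoforms 1 and 2, and SLC25A47 in isoforms 1 and 10. SLC25A48 was lower in isoforms 1, 7, 8 and 11.

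**Figure D2:**
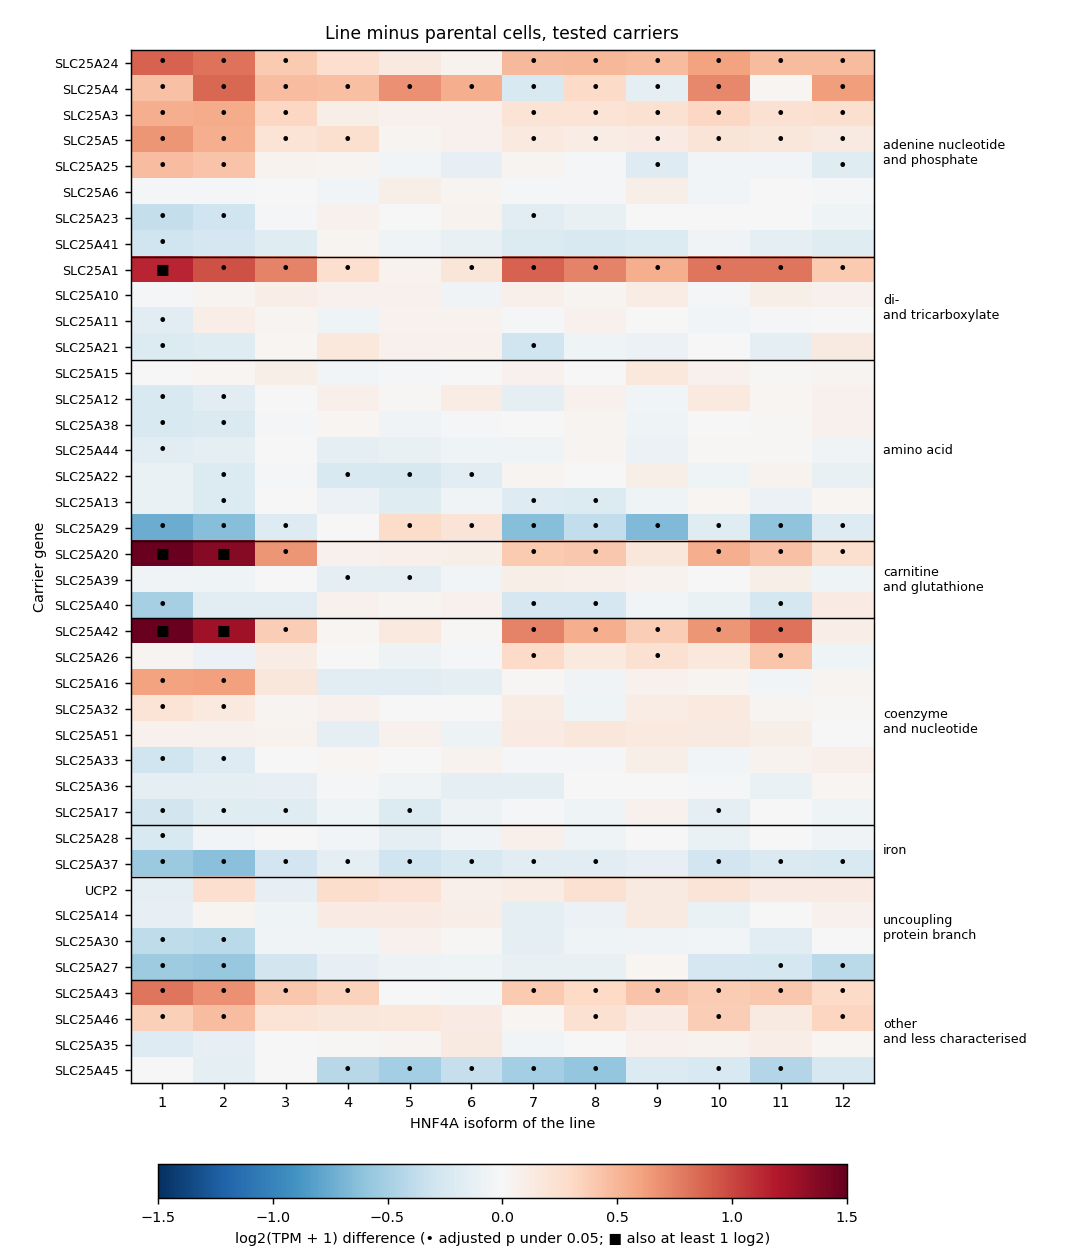
Difference of each line from the parental cells, on the log2(TPM + 1) scale, for the tested carriers grouped by role. Dots mark an adjusted p under 0.05 and squares a difference of at least 1 as well; the squares lie in isoforms 1 and 2 at SLC25A20, SLC25A42 and SLC25A1, and SLC25A29 and SLC25A37 are blue in most lines.

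SLC25A20, the carnitine-acylcarnitine carrier that brings acyl chains into the matrix for oxidation, is annotated as protein-coding on chromosome 3 from 48856931 to 48898993, minus strand (GRCh38, GENCODE). Its 3 parental libraries were at 17.5, 16.2 and 17.3 TPM. The isoform 1 libraries were at 47.6, 47.1 and 52.3 TPM and those of isoform 2 at 43.8, 45.2 and 46.4 TPM. In isoform 3 the libraries had 22.0, 30.1 and 31.1 TPM. All 9 of these libraries lay above the parental ones, and the 22.0 was replicate 1, the library with low HNF4A.
The isoform 4 libraries had 17.0, 18.8 and 17.8 TPM, those of isoform 5 17.4, 18.3 and 18.2 TPM, and those of isoform 6 17.4, 17.3 and 20.0 TPM. These 9 libraries overlapped the parental range.
Isoform 7 was at 22.3, 23.6 and 21.9 TPM, isoform 8 at 23.0, 21.8 and 23.3 TPM, and isoform 9 at 18.0, 19.5 and 20.1 TPM. Isoform 10 was at 24.6, 24.8 and 25.9 TPM, isoform 11 at 23.3, 22.5 and 24.3 TPM, and isoform 12 at 20.3, 19.9 and 20.3 TPM. All 18 libraries lay between the parental cells and isoform 2.
SLC25A20 rose by a log2 difference of 1.48 ± 0.076 (SE) in isoform 1 (limma, adjusted p = 2.65e-16), and its difference for isoform 2 was 1.36 (adjusted p = 2.29e-15). The difference in isoform 3 was 0.66 (adjusted p = 8.89e-08), and 0.82 without replicate 1. It also rose in isoforms 7, 8, 10 and 11, by 0.39 to 0.54. In isoform 12 it was 0.24 higher (adjusted p = 0.0313), which was lost when any 1 of the 6 libraries was left out (adjusted p 0.0512 to 0.122). In isoforms 4, 5 and 6 the differences were 0.07, 0.08 and 0.09, with adjusted p of 0.501 or more. In the order of group means, isoforms 1 and 2 were apart from each other and from the rest, while the neighbours from the parental cells up to isoform 12 overlapped.

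The other 2 members of the carnitine and glutathione group are the glutathione carriers SLC25A39 and SLC25A40. SLC25A39 had group means between 237.7 and 279.1 TPM, a highest-to-lowest ratio of 1.17, and fell in isoforms 4 and 5, or in isoform 5 alone after scaling, when it rose in isoforms 7, 8 and 11. SLC25A40 had 24.4, 28.5 and 25.5 TPM in the parental cells and 16.1, 21.0 and 17.8 TPM in isoform 1, with no overlap, and fell by 0.50 there (limma, adjusted p = 2.37e-05). It was 0.25 to 0.26 lower in isoforms 7, 8 and 11 (adjusted p 0.0257 to 0.0355), and isoforms 7 and 11 no longer passed after scaling. Each of these 3 was lost without parental replicate 2, and also without isoform 7 replicate 3, without parental replicate 3 or isoform 8 replicate 1 or 2, or without isoform 11 replicate 1 or 3 (adjusted p 0.05 to 0.173).

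SLC25A42 is the coenzyme A carrier, which exchanges the cofactor for adenine nucleotides. It lies on chromosome 19 from 19063999 to 19112888, plus strand. The parental libraries were at 8.98, 8.73 and 9.44 TPM. Isoform 1 had 31.4, 24.5 and 25.8 TPM, isoform 2 24.6, 23.4 and 21.7 TPM, and isoform 3 11.2, 12.2 and 12.7 TPM. Isoforms 1 and 2 overlapped each other and lay above every other group.
In isoform 4 the libraries had 9.81, 8.53 and 9.51 TPM, in isoform 5 10.2, 10.8 and 9.48 TPM, and in isoform 6 8.37, 9.77 and 9.55 TPM. The isoform 4 and isoform 6 libraries overlapped the parental ones, and those of isoform 5 lay just above.
Isoform 7 had 15.8, 15.4 and 16.2 TPM, isoform 8 13.3, 13.7 and 14.2 TPM, and isoform 9 11.3, 11.8 and 13.1 TPM. Isoform 10 had 15.5, 13.9 and 15.2 TPM, isoform 11 17.5, 16.0 and 16.6 TPM, and isoform 12 10.1, 10.1 and 9.28 TPM. Of these 6 lines, isoform 12 alone overlapped the parental cells.
SLC25A42 rose by 1.48 ± 0.0734 (SE) in isoform 1 (limma, adjusted p = 1.03e-16), and its difference for isoform 2 was 1.27 (adjusted p = 5.48e-15). Isoform 11 had a difference of 0.82, followed by 0.74 (isoform 7), 0.66 (isoform 10), 0.55 (isoform 8) and 0.37 (isoforms 3 and 9), all past the threshold. In isoforms 4, 5, 6 and 12 they were 0.03, 0.15, 0.02 and 0.10, with adjusted p of 0.187 or more.

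The coenzyme and nucleotide group held 10 members, of which 9 were tested. Beside SLC25A42, SLC25A16, which is linked to coenzyme A metabolism, rose in isoforms 1 and 2. It had 12.8, 14.9 and 14.1 TPM in the parental cells, 20.3, 23.1 and 21.3 TPM in isoform 1 and 21.7, 23.0 and 21.2 TPM in isoform 2. The differences were 0.60 ± 0.0924 (SE) and 0.62, with adjusted p of 1.99e-06 and 1.26e-06 by limma, and no other line passed. The folate carrier SLC25A32 also rose in isoforms 1 and 2, from a parental mean of 59.1 TPM to 68.0 TPM in isoform 1, and after scaling in isoforms 7 and 10 as well. SLC25A26, which carries S-adenosylmethionine, rose in isoforms 7, 9 and 11 by 0.29, 0.23 and 0.42, and in 6 lines after scaling. SLC25A17, the peroxisomal member, fell in isoforms 1, 2, 3, 5 and 10, or in isoforms 1 and 5 alone after scaling. The pyrimidine nucleotide carrier SLC25A33 fell in isoforms 1 and 2, and in no line after scaling. The nucleotide carrier SLC25A36 and the NAD carrier SLC25A51 passed in no line without scaling. The group's median difference was 0.04 in isoform 1 and in isoform 2, against -0.107 and -0.09 for all genes.

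SLC25A1, the citrate carrier, exports citrate for the making of acetyl-CoA and fatty acids in the cytosol. It lies on chromosome 22 from 19175575 to 19178830, minus strand. The parental libraries had 182.3, 184.1 and 179.9 TPM. Isoform 1 had 403.0, 397.0 and 411.4 TPM, isoform 2 336.9, 360.9 and 357.9 TPM, and isoform 3 271.6, 327.0 and 315.7 TPM. Isoform 1 was apart from isoform 2, and replicate 1 of isoform 3 was the lowest of these 9 libraries.
Isoform 4 had 207.5, 217.7 and 224.3 TPM, isoform 5 183.1, 197.2 and 187.0 TPM, and isoform 6 194.2, 211.7 and 213.1 TPM. Of these, isoform 5 overlapped the parental cells.
Isoform 7 was at 336.5, 340.3 and 334.0 TPM, isoform 8 at 311.1, 296.9 and 305.5 TPM, and isoform 9 at 249.5, 276.8 and 278.6 TPM. Isoform 10 was at 312.6, 312.0 and 331.4 TPM, isoform 11 at 312.8, 318.7 and 323.1 TPM, and isoform 12 at 235.0, 235.7 and 245.5 TPM. All 18 libraries lay above those of isoform 4 as well as the parental ones.
SLC25A1 rose by 1.14 ± 0.0494 (SE) in isoform 1 (limma, adjusted p = 4.21e-18), and its difference for isoform 2 was 0.95, or 1.07 after scaling. It rose by 0.74 in isoform 3 and by 0.82 without its replicate 1. In isoforms 7 to 12 it rose by 0.39 (isoform 12) to 0.88 (isoform 7), and in isoform 4 by 0.25. In isoform 6 it was 0.18 higher (adjusted p = 0.0184), which was lost without parental replicate 3 or without isoform 6 replicate 2 or 3 (adjusted p 0.0712 to 0.0944). In isoform 5 the difference was 0.05 (adjusted p = 0.545).
The other 3 members of the di- and tricarboxylate group moved little. The dicarboxylate carrier SLC25A10 passed in no line without scaling, with group means between 72.7 and 81.5 TPM. The oxoglutarate-malate carrier SLC25A11 fell in isoform 1, the group with its lowest mean of 53.9 TPM against 60.8 TPM in the parental cells, and did not after scaling, when it rose in isoform 2 (0.22, adjusted p = 0.00172). The oxodicarboxylate carrier SLC25A21 fell in isoforms 1 and 7, or in isoform 7 alone after scaling, when it rose in isoform 4, and its lowest mean was 3.68 TPM in isoform 7.

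**Figure D3:**
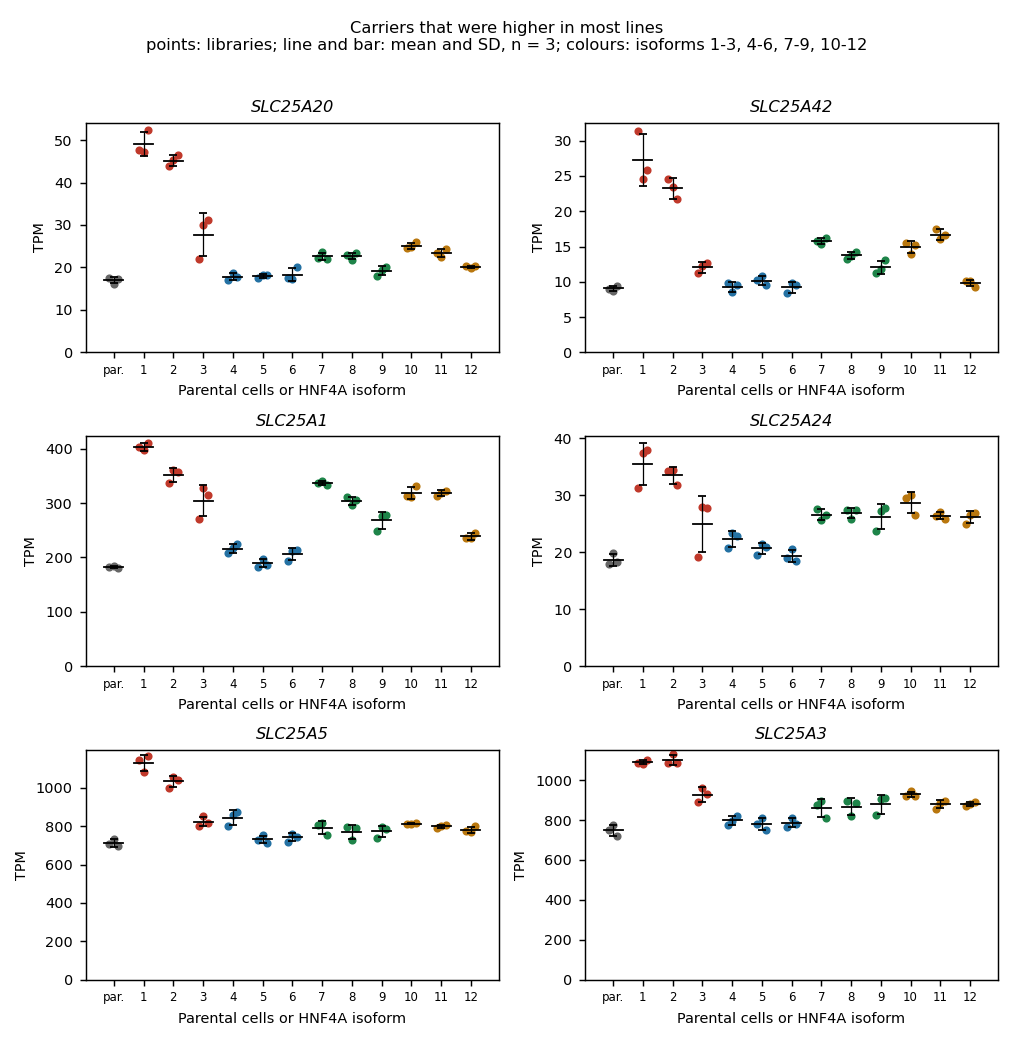
TPM of 6 carriers in every library, in panels for SLC25A20, SLC25A42, SLC25A1, SLC25A24, SLC25A5 and SLC25A3; points are libraries, the line and bar are the mean and SD (n = 3), and colours mark isoforms 1-3, 4-6, 7-9 and 10-12. Isoforms 1 and 2 have the 2 highest means in all panels, and in SLC25A20 isoforms 4 to 6 lie at the parental level.

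The adenine nucleotide and phosphate group held 9 members, 8 of them tested. In isoform 1, 5 rose and 2 fell, with a median difference of 0.45, against 19.8% and 38.7% of all genes. In isoform 2, 5 rose and 1 fell, with a median of 0.48, against 19.7% and 35.6%. After scaling the counts were 6 and 1 in isoform 1, against 32% and 25.8%, and 5 and 1 in isoform 2, against 31.1% and 23.8%. SLC25A24, a calcium-regulated ATP-magnesium/phosphate carrier on chromosome 1 from 108134036 to 108200849, had 17.9, 19.8 and 18.3 TPM in the parental cells. It had 31.3, 37.4 and 38.0 TPM in isoform 1 and 34.2, 34.5 and 31.8 TPM in isoform 2, with no overlap. The differences were 0.89 ± 0.0898 (SE) and 0.81 (limma, adjusted p = 7.51e-10 and 6.36e-09), and after scaling 1.03 and 0.93. In isoform 3 the libraries were at 19.2, 28.0 and 27.7 TPM, the first being replicate 1. The difference was 0.39 with all 3 libraries and 0.56 without replicate 1, and 0.39 missed the threshold when only the parental and isoform 3 libraries were fitted (adjusted p = 0.0988). SLC25A24 rose by 0.47 to 0.60 in isoforms 7 to 12. In isoforms 5 and 6 it did not pass (0.14 and 0.05). In isoform 4 the difference of 0.25 had an adjusted p of 0.0605, and passed without 1 of its libraries (adjusted p = 0.0477) and after scaling (adjusted p = 0.00831).

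SLC25A5 is the main ADP/ATP carrier of proliferating cells, which exports ATP from the matrix. It had 706.4, 733.6 and 696.1 TPM in the parental cells, 1141.9, 1081.9 and 1164.2 TPM in isoform 1 and 1001.1, 1058.4 and 1039.0 TPM in isoform 2. It rose by 0.66 ± 0.0388 (SE) and 0.54 there (limma, adjusted p = 5.11e-15 and 9.35e-13). The differences in isoforms 3, 4, 7, 10 and 11 were 0.15 to 0.24 and passed. In isoforms 8, 9 and 12 they were 0.11, 0.12 and 0.13, and each was lost on leaving out a single library. The libraries concerned were parental replicates 1 and 3 for all 3 lines, with isoform 8 replicates 1 and 3, isoform 9 replicates 2 and 3, and isoform 12 replicate 3 (adjusted p 0.0585 to 0.13). SLC25A3, which imports phosphate for ATP synthesis, had 747.7, 776.7 and 718.8 TPM in the parental cells. It had 1087.5, 1081.9 and 1100.5 TPM in isoform 1 and 1087.7, 1129.4 and 1083.1 TPM in isoform 2. The differences were 0.54 ± 0.041 (SE) and 0.56 (limma, adjusted p = 1.65e-12 and 1.34e-12), and 0.20 to 0.31 in isoforms 3 and 7 to 12. In isoforms 4, 5 and 6 SLC25A3 did not pass, with differences of 0.09, 0.06 and 0.07, although isoform 4 passed after scaling (0.16, adjusted p = 0.00825). SLC25A6, another ADP/ATP carrier, had group means between 171.7 and 188.0 TPM and passed in no line without scaling.

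SLC25A4, the ADP/ATP carrier best known from heart and muscle, had a pattern of its own. It lies on chromosome 4 from 185143241 to 185150382, plus strand. The parental libraries had 17.8, 15.9 and 15.9 TPM. Isoform 1 had 23.4, 22.6 and 22.3 TPM, isoform 2 30.4, 30.6 and 30.9 TPM, and isoform 3 21.6, 23.6 and 24.2 TPM. The 3 isoform 2 libraries were the highest of all 39.
Isoform 4 had 22.5, 22.7 and 23.6 TPM, isoform 5 27.3, 27.1 and 26.5 TPM, and isoform 6 24.2, 24.3 and 24.6 TPM. These 3 lines, at or near the parental level for SLC25A20, lay above it here with no overlap.
Isoform 7 had 14.2, 14.2 and 13.3 TPM, isoform 8 21.1, 19.0 and 21.2 TPM, and isoform 9 13.7, 15.5 and 15.7 TPM. Isoform 10 had 27.6, 27.6 and 28.3 TPM, isoform 11 17.7, 16.7 and 16.1 TPM, and isoform 12 26.4, 25.5 and 26.1 TPM. Isoforms 7 and 9 lay below the parental cells, isoform 11 overlapped them, and isoforms 8, 10 and 12 lay above.
SLC25A4 rose by 0.86 ± 0.0494 (SE) in isoform 2 (limma, adjusted p = 4.98e-15), and by 0.72 (isoform 10), 0.68 (isoform 5), 0.63 (isoform 12) and 0.54 (isoform 6). It rose by 0.44 to 0.46 in isoforms 1, 3 and 4 and by 0.29 in isoform 8. It fell by 0.23 in isoform 7 (adjusted p = 0.000389), or by 0.14 after scaling (adjusted p = 0.0277). The 0.13 by which it fell in isoform 9 (adjusted p = 0.0481) was lost after scaling (adjusted p = 0.144) and without parental replicate 1 or isoform 9 replicate 1, where the difference was -0.08 (adjusted p 0.29 and 0.298). In isoform 11 the difference was 0.03 (adjusted p = 0.719).
Lines were also compared with each other, in pairs chosen after their values were seen. SLC25A4 was 0.95 higher in isoform 10 than in isoform 7 (limma, adjusted p = 7.24e-15), where 17.4% of all genes were higher. It was 0.76 higher in isoform 12 than in isoform 9 (adjusted p = 1.07e-12, 9.13% of all genes higher). Isoform 11 was 0.27 below isoform 8 (adjusted p = 0.000672, 8.5% of all genes lower). Within the same N-terminal form it was 0.41 higher in isoform 2 than in 1 and 0.52 higher in 8 than in 7, where 10.5% and 11.1% of all genes were higher. Isoform 11 was 0.69 below isoform 10 (8.9% of all genes lower), so the sign differed between these pairs.

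The remaining members of this group were the calcium-regulated carriers SLC25A23, SLC25A25 and SLC25A41. SLC25A25 rose by 0.46 and 0.43 in isoforms 1 and 2 and fell by 0.19 and 0.18 in isoforms 9 and 12, of which isoform 12 no longer passed after scaling (adjusted p = 0.0657). Its libraries were at 16.5, 16.3 and 15.2 TPM in the parental cells, 23.0, 21.3 and 22.7 TPM in isoform 1 and 13.4, 14.8 and 13.6 TPM in isoform 9. SLC25A23 fell in isoforms 1, 2 and 7, of which isoform 7 no longer passed after scaling, when it rose in isoform 4 (0.13, adjusted p = 0.0284), with a lowest group mean of 51.9 TPM in isoform 1 against 66.8 TPM in the parental cells. SLC25A41, at a parental mean of 1.65 TPM, fell in isoform 1, and not after scaling.

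Among the 9 amino acid carriers, 7 were tested. Of these, 4 fell in isoform 1 and 5 in isoform 2, and 0 rose in either, with median differences of -0.17 and -0.20 against -0.107 and -0.09 for all genes. Of all genes, 38.7% and 35.6% fell in these lines, and 19.8% and 19.7% rose. The falls of the carriers depended on the scaling, after which 1 of the 7, SLC25A29, fell in isoform 1 and in isoform 2, and 0 and 1 rose. The shares of all genes were then 25.8% and 23.8% lower, and 32% and 31.1% higher. SLC25A29, a carrier of basic amino acids, is on chromosome 14 from 100291111 to 100306547, minus strand. The parental libraries had 39.3, 37.8 and 38.6 TPM. Isoform 1 had 22.9, 23.3 and 21.3 TPM, isoform 2 25.5, 23.6 and 23.9 TPM, and isoform 3 35.2, 32.3 and 33.4 TPM. All 9 libraries lay below the parental ones.
Isoform 4 had 41.1, 39.2 and 36.1 TPM, isoform 5 47.5, 48.7 and 44.8 TPM, and isoform 6 45.0, 44.3 and 43.4 TPM. Isoform 4 overlapped the parental cells, and isoforms 5 and 6 lay above them.
Isoform 7 had 24.3, 23.3 and 25.4 TPM, isoform 8 29.9, 30.3 and 29.0 TPM, and isoform 9 22.8, 23.4 and 26.3 TPM. Isoform 10 had 33.6, 32.6 and 35.4 TPM, isoform 11 25.5, 25.4 and 24.4 TPM, and isoform 12 33.3, 34.2 and 33.7 TPM. All 18 lay below the parental range.
SLC25A29 fell by 0.75 ± 0.0494 (SE) in isoform 1 (limma, adjusted p = 7.19e-14), and by 0.66 (isoform 9), 0.64 (isoforms 2 and 7), 0.60 (isoform 11) and 0.37 (isoform 8). It fell by 0.18 or 0.19 in isoforms 3, 10 and 12. It fell in the same 9 lines after scaling. It rose by 0.28 in isoform 5 (adjusted p = 0.000205) and by 0.19 in isoform 6 (adjusted p = 0.0104), the latter lost without parental replicate 2 (adjusted p = 0.0521). In isoform 4 the difference was 0.01 (adjusted p = 0.952). Between lines, again chosen after their values were seen, SLC25A29 was 0.92 higher in isoform 5 than in isoform 2 (limma, adjusted p = 8.36e-16, 35.8% of all genes higher). It was 0.76 higher in isoform 4 than in isoform 1 (adjusted p = 5.68e-14, 33.4% of all genes higher), and 0.39 higher in isoform 6 than in isoform 3 (adjusted p = 6.67e-07, 12.6% of all genes higher).
The mitochondrial glutamate carrier SLC25A22 fell in isoforms 2, 4, 5 and 6, by 0.16 to 0.24, and after scaling in isoforms 4 and 5, when it rose by 0.14 in isoforms 7 and 11 (adjusted p = 0.0452 and 0.0474). The aspartate-glutamate carriers SLC25A12 and SLC25A13 fell in isoforms 1 and 2, and in isoforms 2, 7 and 8, respectively. The glycine carrier SLC25A38 fell in isoforms 1 and 2 and the branched-chain amino acid carrier SLC25A44 in isoform 1, and none of these 4 passed downward after scaling, when SLC25A12 rose in isoform 10 (0.19, adjusted p = 0.0114). The ornithine carrier SLC25A15 passed in no line without scaling.

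The iron carriers are the mitoferrins SLC25A37 and SLC25A28, which supply iron for heme and iron-sulfur clusters. SLC25A37 had 38.7, 39.8 and 39.4 TPM in the parental cells, the highest mean of the 13 groups. It had 25.2, 26.8 and 27.1 TPM in isoform 1 and 25.1, 24.9 and 25.0 TPM in isoform 2. All 36 libraries of the lines lay below the parental range. SLC25A37 fell by 0.63 ± 0.0445 (SE) in isoform 2 (limma, adjusted p = 5.18e-13), and its difference for isoform 1 was -0.56 (adjusted p = 5.1e-12), or -0.51 and -0.43 after scaling. It fell by 0.15 to 0.30 in isoforms 3 to 8 and 10 to 12, and in isoform 9 the difference was -0.12 (adjusted p = 0.0522). After scaling it fell in 9 lines rather than 11, since isoforms 4 and 7 no longer passed (adjusted p = 0.145 and 0.193). In isoform 4 the call was also lost without parental replicate 2 or 3, or without 1 of the isoform 4 libraries (adjusted p 0.0527 to 0.065). SLC25A28 fell in isoform 1, where its mean was 50.6 TPM against 59.6 TPM in the parental cells, and in no line after scaling.

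In the uncoupling protein branch, UCP2 passed in no line without scaling, with group means between 14.4 and 19.2 TPM. UCP2 is a carrier of small dicarboxylates and phosphate that is named for its likeness to the brown fat protein. SLC25A14 passed in no line without scaling either. SLC25A27, a low-level member, had 1.48, 1.65 and 1.80 TPM in the parental cells, 0.815, 0.918 and 0.759 TPM in isoform 1 and 0.809, 0.752 and 0.768 TPM in isoform 2. It fell by 0.53 ± 0.104 (SE) and 0.57 (limma, adjusted p = 6.41e-05 and 2.68e-05), and by 0.41 in isoform 12. In isoform 11 it fell by 0.26 (adjusted p = 0.0446), which was lost after scaling and without parental replicate 2 or 3. It was also lost without isoform 11 replicate 3, where the difference was -0.16 (adjusted p = 0.302). SLC25A30 fell in isoforms 1 and 2, by 0.38 and 0.41.

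The other and less characterised carriers were 8, of which 4 were tested. SLC25A43, whose substrate is not settled, had 22.6, 24.8 and 24.4 TPM in the parental cells, 41.1, 41.6 and 44.3 TPM in isoform 1 and 37.0, 38.9 and 40.7 TPM in isoform 2. It rose by 0.80 ± 0.0609 (SE) and 0.68 (limma, adjusted p = 2.11e-12 and 9.52e-11), and by 0.29 to 0.43 in isoforms 3, 4 and 7 to 12. In isoforms 5 and 6 the differences were 0.00 and -0.03. SLC25A46, a protein of the outer membrane that acts in mitochondrial shape, had 24.9, 28.3 and 25.8 TPM in the parental cells and 35.7, 37.6 and 36.3 TPM in isoform 2. It rose by 0.46 ± 0.09 (SE) in isoform 2 (limma, adjusted p = 7.17e-05), by 0.37 for isoform 10 and by 0.36 for isoform 1. In isoforms 8 and 12 it was 0.23 and 0.32 higher, and both were lost without parental replicate 1 or 3. They were also lost without any single isoform 8 library, or without isoform 12 replicate 2 or 3 (adjusted p 0.0547 to 0.165). In isoform 3 it was 0.20 higher (adjusted p = 0.105), and 0.31 without replicate 1 (adjusted p = 0.0115). After scaling, with all libraries, SLC25A46 rose in 8 lines, the 3 further ones being isoform 3 (0.26, adjusted p = 0.0118), isoform 4 and isoform 11 (0.23 each, adjusted p = 0.0331 and 0.0199).
SLC25A45 went the other way. It had 2.59, 2.75 and 3.29 TPM in the parental cells, 1.61, 1.58 and 1.55 TPM in isoform 8, 1.34, 1.80 and 2.04 TPM in isoform 7 and 1.76, 1.78 and 1.62 TPM in isoform 5. Isoforms 1, 2 and 3, at 2.40 to 3.36 TPM, overlapped the parental cells. SLC25A45 fell by 0.58 ± 0.0832 (SE) in isoform 8 (limma, adjusted p = 2.19e-06), and by 0.51 (isoforms 5 and 7), 0.44 (isoform 11) and 0.42 (isoform 4). It fell by 0.35 in isoform 6, lost without parental replicate 3 (adjusted p = 0.0633), and by 0.23 in isoform 10, lost without parental replicate 3 or isoform 10 replicate 1 or 2 (adjusted p 0.0544 to 0.186). In isoform 12 the difference of -0.24 passed only without parental replicate 1 (adjusted p = 0.0406 against 0.0546). SLC25A35 passed in no line.

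**Figure D4:**
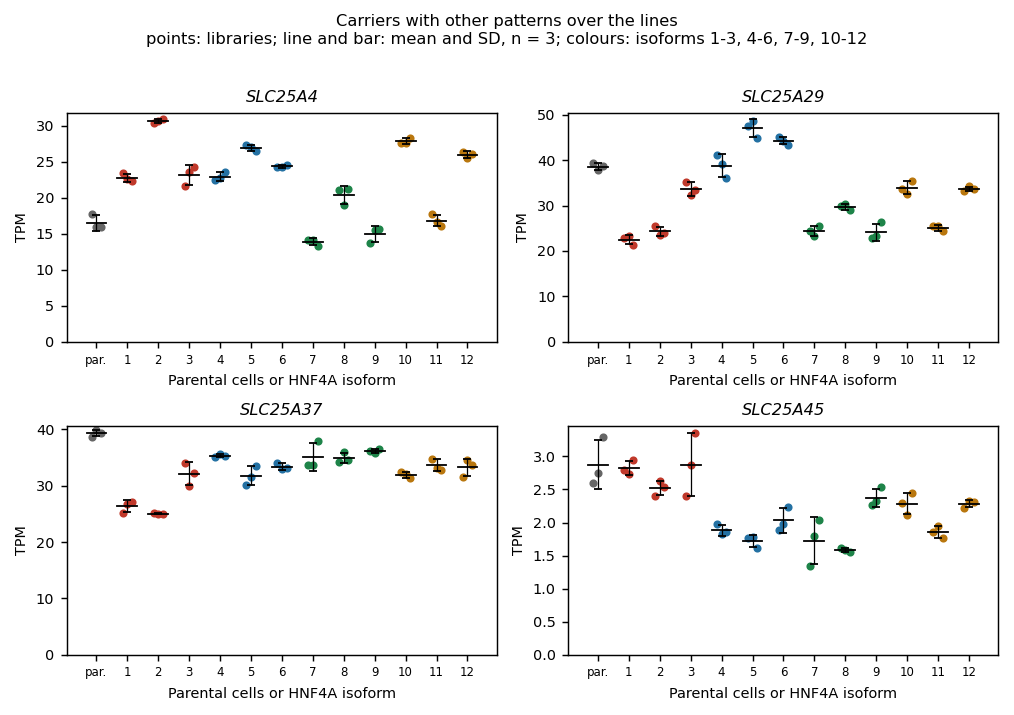
TPM of SLC25A4, SLC25A29, SLC25A37 and SLC25A45 in every library; points are libraries, the line and bar are the mean and SD (n = 3), and colours mark isoforms 1-3, 4-6, 7-9 and 10-12. SLC25A4 is highest in isoform 2 and below the parental cells in isoforms 7 and 9, SLC25A29 is highest in isoform 5, SLC25A37 is highest in the parental cells, and SLC25A45 is near the parental level in isoforms 1 to 3.

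The lines were next grouped by the N-terminal form of the isoform and by the C-terminal form. The labels do not give these classes, which follow the usual naming of HNF4A isoforms. Isoforms 1 to 3, 4 to 6, 7 to 9 and 10 to 12 each share an N-terminus, and isoforms 3, 6, 9 and 12 have a shortened C-terminus. The unit was the line, with 12 line means in an additive limma model. Class differences are given without scaling, and class counts past the adjusted p alone are not given after it. Without scaling the median difference of all genes from the parental cells was -0.107, -0.09 and -0.043 in isoforms 1 to 3. It was -0.032, 0.012 and -0.006 in isoforms 4 to 6, so small class differences can hold such an offset. Between isoforms 4 to 6 and isoforms 1 to 3, 7 of 41 carriers were higher and 10 lower past the adjusted p, against 22.1% and 12.6% of all genes. SLC25A20 was 1.08 lower (SE 0.132, adjusted p = 0.00119), the 1 carrier past the threshold of 1, which 0.587% of all genes passed upward and 1.37% downward. SLC25A42 was lower by a difference of -0.97 (SE 0.177, adjusted p = 0.0049) and SLC25A1 by -0.78 (SE 0.0831, adjusted p = 0.000688). SLC25A16, SLC25A24, SLC25A43, SLC25A3, SLC25A45, SLC25A5 and SLC25A25 were also lower, by -0.35 to -0.62. SLC25A29 was 0.69 higher (SE 0.156, adjusted p = 0.0105), and SLC25A27, SLC25A40, SLC25A30, SLC25A23, SLC25A37 and SLC25A33 were 0.19 to 0.37 higher.
Between isoforms 7 to 9 and isoforms 1 to 3, 2 carriers were higher and 6 lower, against 6.65% and 4.95% of all genes. SLC25A20 differed by -0.85 (SE 0.132, adjusted p = 0.00892), SLC25A16 by -0.45, SLC25A45 by -0.38, SLC25A25 by -0.37, SLC25A5 by -0.34 and SLC25A3 by -0.25. SLC25A27 and SLC25A37 were 0.39 and 0.34 higher. SLC25A4, with -0.61, did not pass (adjusted p = 0.0766), and neither did SLC25A42 with -0.48 (adjusted p = 0.0972).
Between isoforms 10 to 12 and isoforms 7 to 9, 0 carriers and 0% of all genes passed by limma, while 3 carriers and 1132 of 15003 genes had an unadjusted p under 0.05. For the short C-terminus against the others, 0 carriers passed, where 2 genes, or 0.0133%, were lower, and 10 carriers and 2724 genes had an unadjusted p under 0.05. SLC25A42 had a difference of -0.49 (SE 0.132, adjusted p = 0.132) and SLC25A1 one of -0.24 (adjusted p = 0.129).
In single pairs of lines with the same N-terminus, SLC25A42 differed by -1.11 between isoforms 3 and 1 (limma, adjusted p = 4.6e-13, 13.8% of all genes lower), by -0.55 between isoforms 12 and 10 (adjusted p = 1.89e-06, 7.83% of all genes lower) and by -0.37 between isoforms 9 and 7 (adjusted p = 0.000682, 4.69% of all genes lower). Between isoforms 6 and 4 the difference was -0.01 (adjusted p = 0.973). These pairs compare 1 line with 1 line, and they were picked after the values were seen.

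**Figure D5:**
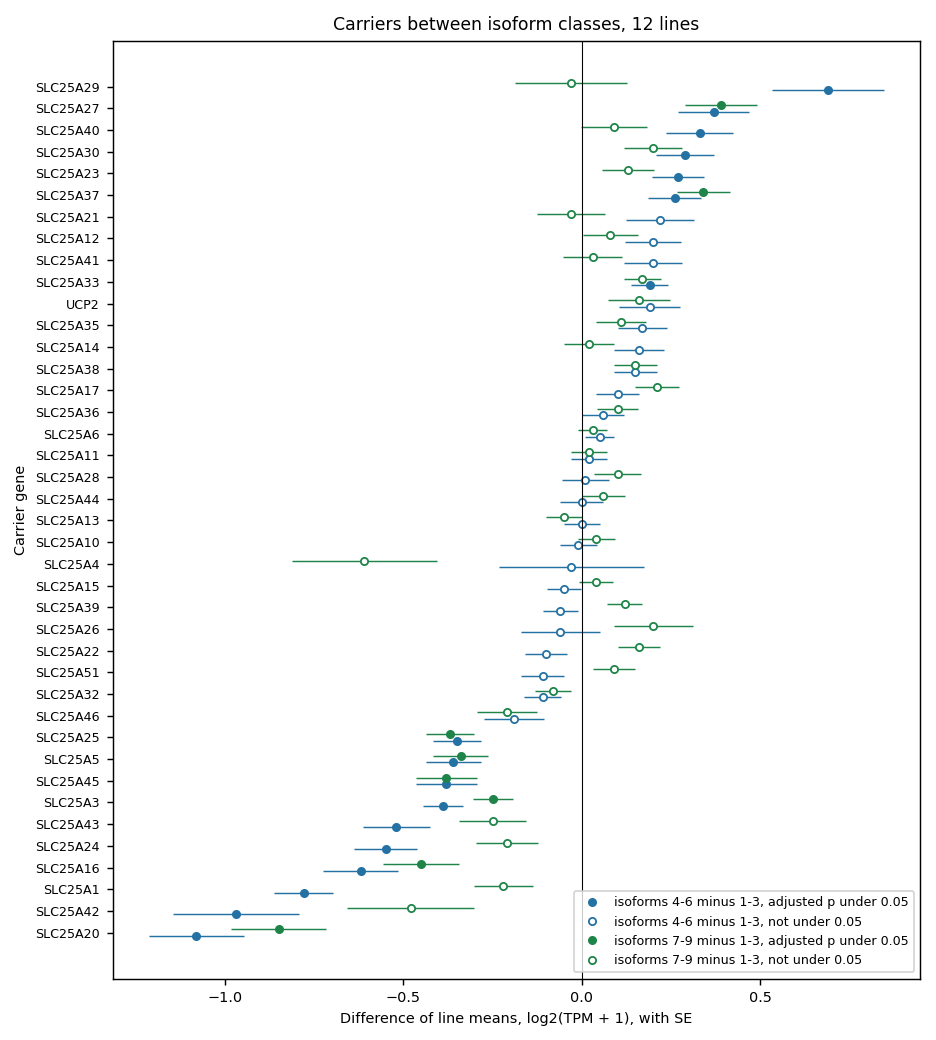
Differences between isoform classes on the log2(TPM + 1) scale for the tested carriers, with the SE from 12 line means; blue is isoforms 4-6 minus 1-3, green is isoforms 7-9 minus 1-3, and filled points have an adjusted p under 0.05. SLC25A20 has the lowest blue point at -1.08 and SLC25A29 the highest at 0.69.

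Proteins that work with the carriers were counted from lists drawn up by role, and are given without scaling only. The median difference of all genes in isoform 1 was then -0.107, and 0.016 after scaling. Of 14 related transporters of the mitochondrial membranes, 12 were tested. In isoform 1, 7 rose and 3 fell, where 19.8% and 38.7% of all genes did. For isoform 2 the counts were 8 and 3, against 19.7% and 35.6%, and for isoform 6 they were 2 and 1, against 5.94% and 4.13%. SFXN3, a sideroflexin of the serine transporter family, had 16.2 TPM ± 0.953 (SD, n = 3) in the parental line and 35.1 TPM ± 1.67 in isoform 1, a difference of 1.07 (limma, adjusted p = 2.95e-15). MPC2, a subunit of the pyruvate carrier, rose by 0.58 in isoform 1, while its partner MPC1 rose by 0.45 in isoform 2. MTCH1, an outer membrane protein of the same family, had 152.2 TPM in the parental cells. Its difference in isoform 1 was -0.12 (limma, adjusted p = 0.00123), near the median of -0.107 for all genes. MTCH2, an outer membrane insertase from the same family, rose by 0.48 in isoform 1, from 113.9 to 159.5 TPM. UCP1 and UCP3 had means of 0.117 and 0.942 TPM and were not tested.
Among 10 parts of the import machinery for carriers, 0 passed the threshold of 1 in any line. Of all genes, 2.74% were higher and 1.78% lower by that much in isoform 1, and smaller shares in every other line. The 0 of 10 is thus near the share of all genes. At the adjusted p alone, 2 rose and 2 fell in isoform 1, against 19.8% and 38.7% of all genes. TOMM70, the receptor that binds carrier precursors, rose by 0.41 in isoform 1, and TOMM40, the outer membrane channel, fell by 0.27. Of 13 enzymes that use the carried substrates, 12 were tested, and in isoform 1, 5 rose and 3 fell, against the same shares of all genes. CRAT, carnitine acetyltransferase, rose by 1.20 in isoform 1, where it had 60.3 TPM ± 2.61 (SD, n = 3) against 25.8 TPM ± 0.246 in parental cells (limma, adjusted p = 1.97e-14). GPD2, of the glycerol phosphate shuttle, rose by 0.73 and 0.53 in isoforms 1 and 2. The carnitine palmitoyltransferases CPT1A and CPT2, which work on either side of SLC25A20, had differences of 0.17 and -0.10 in isoform 1, and CPT1B had -0.52.

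Markers of other cell types differed between lines as well. The summed level of the 10 markers was 19.5 to 21.6 TPM in the parental libraries, 50.5 to 53.6 TPM in isoform 1, 46.9 to 49.2 TPM in isoform 2 and 18.1 to 21.3 TPM in isoform 6. Of the 3 tested markers, 2 rose in isoform 1, where 19.8% of all genes did. CD68, a lysosomal protein abundant in macrophages, had means of 3.85 TPM in the parental cells and 33.0 TPM in isoform 1, and PECAM1 had 2.32 and 5.75 TPM. COL1A1, the other tested marker, made up the largest part of the parental sum. It did not rise in isoform 1, where its mean was 12.7 TPM, just below the parental one. PTPRC, the pan-leukocyte marker, was at 0.065 TPM in the parental cells and 0.0203 TPM in isoform 1. The epithelial markers also moved: 5 of 5 rose in isoform 1, with a median difference of 0.86, where 19.8% of all genes rose. In isoform 6, 5 of 5 fell, with a median of -0.31, where 4.13% of all genes fell. In isoforms 7 and 11, 5 of 5 rose as well, against 13.4% and 14.5% of all genes. In the other lines 0 to 4 rose and 0 to 3 fell. The part of these shifts in the carrier values was not tested, and in bulk RNA fewer cells of a kind and less RNA per cell cannot be told apart.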

How the data were processed

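RNA-seq of 39 libraries was used, 3 for parental cells and 3 for each of 12 isoform lines. The authors deposited 1 table per group with TPM per library. Their line tables also hold a mean of normalised counts (a signal), the authors' log2 fold change and standard error, their test score and their p-values, per the file headers. The submitters' processing notes name Trimmomatic 0.36, FastQC 0.11.5, kallisto 0.44.0, DESeq2 1.22.2 and the build GRCh38.p12, without roles. The deposited TPM keeps no read depth, so no counting interval is given.

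The 13 tables were joined by row, and rows HNF4A1 to HNF4A12 were summed. The 15003 genes whose average over 39 libraries reached 1 TPM entered limma 3.58.1 (R 4.3.3, lmFit and eBayes with trend) on log2(TPM + 1), which understates changes of low genes. The fit held all libraries and 13 groups, leaving 26 residual degrees of freedom (median residual SD 0.094), with Benjamini-Hochberg adjustment over all genes tested per comparison. The script was tested on simulated data. Labels and column names gave the groups. The sample titles of isoforms 4 and 5 number the replicates but repeat the same tag, so their columns could not be matched to single samples. Their libraries were treated as unnumbered and left out of the replicate block. Isoform classes were tested on 12 line means. Gene positions are from GENCODE (GRCh38) and promoters from RefSeq (GRCh38.p14).

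The values of 1 member are not reported here, in text or figures, and counts include it. The members and lists were chosen with earlier results of these data known. Named with full values were HNF4A, members past adjusted p under 0.05 and a difference of at least 1 in any line, members with the next largest differences up to 15, and the 3 with the highest mean TPM. Other members and the list genes named beside them were chosen after their values were seen. Alternatives changed the pseudocount, filter, scaling, trend, libraries fitted, minimum difference and replicate block, or left out 1 library.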

Additional observations from a re-analysis of the deposited data

Results flagged for a closer look

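SLC25A20, the carnitine-acylcarnitine carrier, had a larger difference from the parental cells in the lines of isoforms 1 to 3 than in those of isoforms 4 to 6. The difference between these classes was -1.08 on the log2(TPM + 1) scale (SE 0.132, limma on 12 line means, adjusted p = 0.00119), with line means of 49.0, 45.1 and 27.7 TPM in isoforms 1, 2 and 3 and of 17.9, 18.0 and 18.2 TPM in isoforms 4, 5 and 6. It drew attention because the difference from the parental cells was not the same in these 2 groups of lines, by a test of the difference itself.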

How the results depend on the processing

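For the 15 named carriers, none of the 120 pairs of carrier and line past the adjusted p changed direction under the alternatives run, and 102 passed under every alternative run and 18 were lost under at least 1. Pairs that had not passed could change sign, as SLC25A45 in isoform 1 did from -0.01 to 0.09 on scaling. A pseudocount of 0.1 lost 0 pairs, and it raised the count of carriers past both thresholds between isoforms 4 to 6 and 1 to 3 from 1 to 2, as did median-of-ratios scaling. That scaling gave 4 carriers past both thresholds in isoform 1 and 3 in isoform 2, against 3 and 2 without it. It moved the count past the adjusted p in isoform 4 from 8 to 13, and fitting the parental and isoform 9 libraries alone moved isoform 9 from 10 to 6, where fewer samples estimate the spread. A minimum difference of 0.5 in place of 1 gave, for isoforms 1 to 12 in order, 11, 12, 2, 0, 2, 1, 4, 4, 2, 5, 3 and 1 carriers, by construction of the looser limit. Shares of all genes at this limit, or past both thresholds after scaling, are not given here. The same holds for the counts below without 1 library and with the replicate block. These counts are therefore not shown to be particular to carriers.

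Leaving out 1 library at a time gave 3 carriers past both thresholds in isoform 1, 2 in isoform 2 and 0 elsewhere. The counts past the adjusted p ranged, for isoforms 1 to 12 in order, over 25 to 28, 21 to 24, 10 to 12, 7 to 8, 6 to 8, 3 to 5, 15 to 17, 12 to 13, 8 to 10, 11 to 13, 11 to 13 and 8 to 10. Isoform 6 had 3 without parental replicate 3, against 6 with all libraries. Without each replicate number, the class comparison of isoforms 4 to 6 with 1 to 3 gave 1 to 2 carriers (2 without replicate 2), and the other class comparisons 0. Isoforms 4 and 5, treated as unnumbered, kept all their libraries in these runs.

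The replicate numbers were not used to pair libraries in the main fit. Of 165 pairs of numbered libraries with the same number, 38 had deviations correlated over 0.1. The median was 0.054, against -0.029 for pairs with different numbers, and 28 of 33 libraries correlated best with their own number. Libraries of the same number thus shared some deviation, which the main fit does not model. With a replicate block, the carriers past the adjusted p were 29, 26 and 12 for isoforms 1 to 3 and 6, 19, 17, 11, 15, 13 and 13 for isoforms 6 to 12, and those past both thresholds stayed at 3 and 2 in isoforms 1 and 2. Of 150 comparisons of named carriers with the block, 2 lost and 2 gained the adjusted p. TPM gives no read depth, so no limit of detection is stated.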
